A study of Mus musculus and Callithrix jacchus with 22 samples.

Results

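Corticothalamic projection neurons (CthPN) were described here as every cell that the authors' annotation named CthPN in single-cell maps of open chromatin from mouse and marmoset cortex. The name was given to 2708 of 19145 mouse cells (14.1%) and to 642 of 15919 marmoset cells (4.03%), which makes 3350 of 35064 cells in all. The mouse libraries came from the somatosensory and motor cortex of wild-type C57BL/6 mice aged 1, 7 or 21 postnatal days (P1, P7, P21), with 4 libraries at each age. At each mouse age 2 libraries carried a numeric tag in their titles and are called numbered here, and 2 were titled Pool. The marmosets, also wild type, gave 5 newborn libraries (Day0) and 5 adult libraries (2 labelled Y7 and 3 labelled Y8) from tissue labelled somatosensory cortex. No treatment or transgene is named in the labels of any group. Nothing in the labels says whether the libraries of an age came from separate animals, so p-values measure only the spread between these libraries, which may be technical.

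Corticothalamic neurons are excitatory pyramidal cells of the deep cortex, mostly of layer VI, that send their axons to the thalamus. Through these fibers and through branches onto inhibitory cells of the thalamic reticular nucleus, they adjust the sensory signals that the thalamus relays to the cortex. Tle4, a transcriptional corepressor, and Foxp2, a forkhead transcription factor, are widely used markers of these cells. They are born early in cortical neurogenesis. In the first postnatal weeks their axons and dendrites mature while thalamic fibers grow into layer IV.

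The tables used here hold, for each cell, its library, its age, its cluster, its name, its number of reads and its number of peaks with at least 1 read. They hold no value for a gene or a region, so the name CthPN could not be checked against Tle4 and Foxp2. Reads per cell are a measure of how deeply a cell was sampled. Peaks per cell count the open regions in which a cell had a read. Shares below count recovered cells and do not measure the tissue. Marmoset cells had passed a sort for live cells and mouse cells a sort into wells, and the labels also describe sorting of fluorescent neurons, although the study calls this tissue unfractionated. Any of these steps can set how many cells of a type are recovered, and their part in the shares was not tested.

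Libraries held 893 to 3407 cells and 2186788 to 15904940 reads in mouse, and 1209 to 1814 cells and 5139726 to 13441944 reads in marmoset. Cell barcodes recurred between libraries. In mouse, 18 of 66 pairs of libraries shared between 109 and 618 barcodes, and the other pairs shared none. The shared mouse barcodes came to 5572 over all pairs. In 1447 of these the cell was named CthPN in at least 1 of the 2 libraries, and in 111 it was named CthPN in both. In marmoset each of the 45 pairs shared 1 to 9 barcodes, and none was CthPN in both libraries. No shared barcode had the same reads and peaks in both libraries, in either species.

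Before any comparison of ages, 2 libraries have to be set apart. In the numbered P1 libraries, CthPN cells had far fewer peaks for their reads than in the other 10 mouse libraries. The median was 171 peaks per 1000 reads in the first numbered P1 library and 108 in the second. In the other mouse libraries the medians lay between 520 and 579. The cells did not overlap either: the highest of the 573 CthPN cells of the numbered P1 libraries stood at 390 peaks per 1000 reads, and the lowest of the 2135 other mouse CthPN cells stood at 469. The medians over all cells of the same 2 libraries, whatever their name, were 171 and 107. Every value on peaks at P1 is therefore given with and without them.

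**Figure D1:**
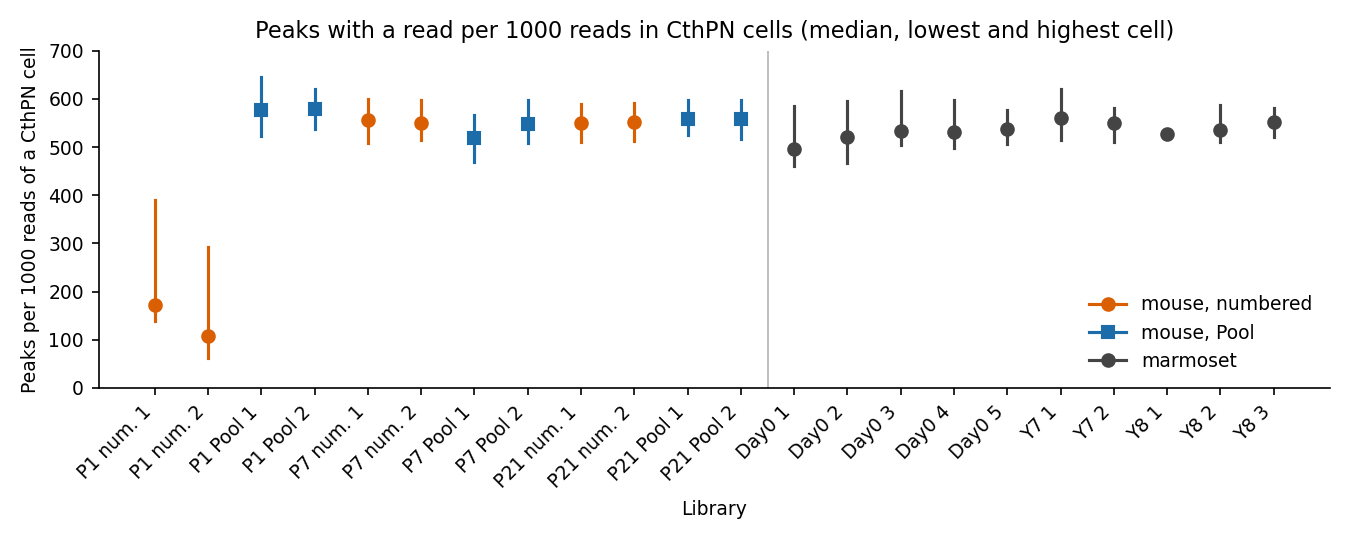
Peaks with a read per 1000 reads of CthPN cells (y axis) in each mouse and marmoset library (x axis), where a symbol is the median cell and a line runs from the lowest to the highest cell. The numbered P1 libraries sit at 171 and 108, while every other library of either species has a median between 495 and 579.

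Across mouse CthPN cells the Pearson correlation of reads with peaks was 0.718 over 2708 cells. Without the numbered P1 libraries it was 0.999 over 2135 cells, and in marmoset it was 0.996 over 642 cells. These correlations are descriptions across cells that share libraries. Outside the numbered P1 libraries, the number of peaks of a CthPN cell thus followed its number of reads almost exactly. Within the first and the second numbered P1 library, each taken alone, the correlation was 0.980 and 0.920, so peaks rose with reads there too.

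Leaving out an unnamed P7 cluster described below, cells named CthPN were much scarcer at P7 than at P1 or at P21. They numbered 406 and 167 in the numbered P1 libraries and 197 and 199 in the Pool P1 libraries. At P7 they numbered 77 and 63 in the numbered and 72 and 92 in the Pool libraries. At P21 they numbered 689 and 348 in the numbered and 210 and 188 in the Pool libraries. As a share of all cells of a library, CthPN came to 20.2% ± 2.15 in P1 libraries (mean ± SD, n = 4), 5.02% ± 1.05 in P7 libraries (n = 4) and 16.7% ± 2.75 in P21 libraries (n = 4). The lowest P1 library stood at 17.6% (95% Wilson interval 15.3 to 20.1) and the highest P7 library at 6.40% (5.25 to 7.79). The lowest P21 library stood at 14.2% (12.5 to 16.2). The P7 libraries thus overlapped with neither neighbor, whereas P21 libraries, which reached 20.2% (18.9 to 21.6), overlapped with P1 libraries. Such intervals cover counting error only.

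Layer IV neurons were named from P7 on but not at P1, so a share of all pyramidal cells has a denominator that changes between P1 and P7. The share was therefore taken over the 3 projection classes named at every age: callosal neurons (CPN), which connect the hemispheres, subcerebral neurons (ScPN), which project to brainstem and spinal cord, and CthPN. Of these cells, CthPN made up a mean of 30.6% ± 2.09 in P1, 11.8% ± 2.24 in P7 and 29.0% ± 2.91 in P21 libraries (SD over 4 libraries). Individual libraries ran from 28.1% to 32.7% at P1, from 9.36% to 14.5% at P7 and from 26.4% to 33.0% at P21. On this denominator P21 libraries overlapped with P1 libraries, and only P7 stood apart. The names counted were the same at every age. Which name, if any, layer IV cells carried at P1 is not given by the values used here, so the denominator may still change.

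Among the named cells of the 2 deep-layer classes alone, ScPN and CthPN, the ages separated fully. CthPN made up 72.3% ± 1.73 of these cells in P1, 26.5% ± 3.23 in P7 and 53.5% ± 2.06 in P21 libraries (SD over 4 libraries). The lowest P1 library had 70.1%, P21 libraries lay between 51.7% and 56.4%, and the highest P7 library had 29.3%.

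**Figure D2:**
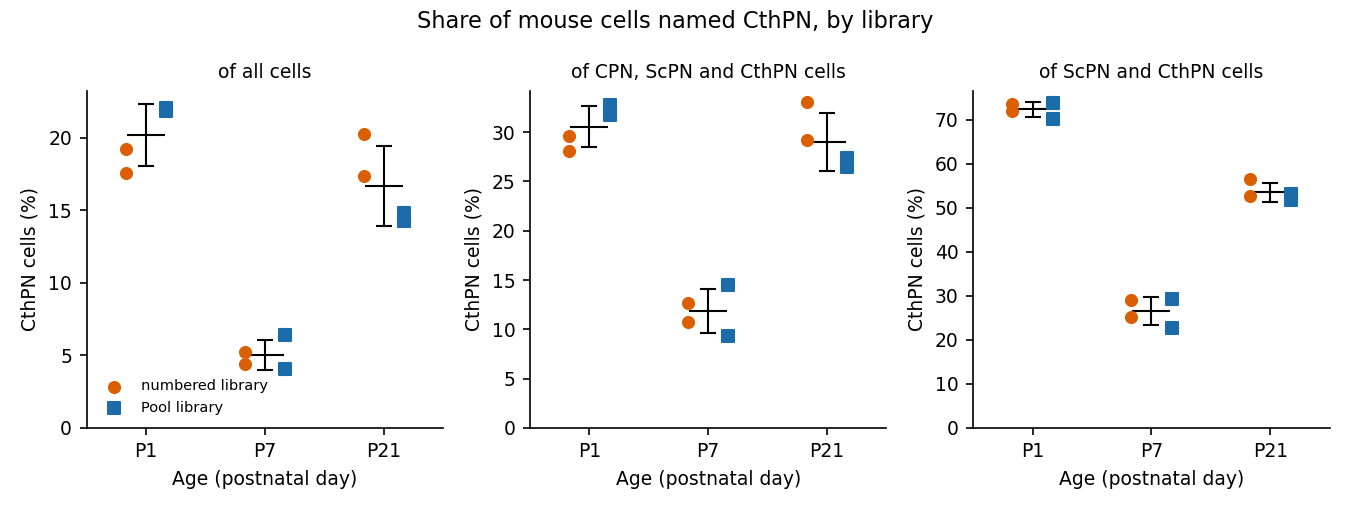
CthPN cells in percent (y axis) of all cells, of CPN, ScPN and CthPN cells, and of ScPN and CthPN cells, by age in postnatal days (x axis), with 1 circle per numbered and 1 square per Pool library, and the mean with its SD in black (n = 4). P7 lies below both other ages in each panel, at means of 5.02%, 11.8% and 26.5%. Cluster 9 of P7, left unnamed, was not counted as CthPN.

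These differences were tested between libraries by exact two-sided permutation tests of the difference in means, with Benjamini-Hochberg adjustment over the 9 tests of mouse shares. In all, 7 of the 9 passed, each at p = 0.0286, the smallest that 4 libraries against 4 can give, and at adjusted p = 0.0367 (exact permutation test). Between P1 and P7 the share of cells named CthPN fell. The differences were -15.2 percentage points of all cells, -18.7 points of CPN, ScPN and CthPN cells and -45.8 points of ScPN and CthPN cells. From P7 to P21 the share of named cells rose by 11.6, 17.2 and 27.0 points on the same 3 denominators. P21 lay below P1 by a difference of -18.9 points among ScPN and CthPN cells, which passed. The P21 minus P1 difference was -3.53 points of all cells (adjusted p = 0.129, exact permutation test, n = 4) and -1.53 points of the 3 projection classes (adjusted p = 0.400, exact permutation test, n = 4), and neither passed.

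Among named cells, the differences from P7 held their direction within each series of libraries. Of the 3 projection classes, P7 minus P1 was -17.1 points in numbered and -20.3 in Pool libraries, and P21 minus P7 was 19.4 and 15.0 points. P21 minus P1 went opposite ways on this denominator, at 2.27 points in numbered and -5.33 in Pool libraries. The 2 against 2 libraries of a series cannot give an exact permutation p under 0.333. Without both numbered P1 libraries, P7 minus P1 was -16.9 points of all cells, and 2 libraries against 4 cannot give a p under 0.0667 (exact permutation test), which ends the call. With mouse libraries of 1 age that agreed within sampling noise averaged, 2 or 3 libraries remained at each age, and no p under 0.100 was possible (exact permutation test).

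At P7 another 834 cells formed cluster 9, which the authors left unnamed. This cluster held cells of P7 only, 192 and 171 in the numbered and 272 and 199 in the Pool libraries, with a median of 2940.5 reads. When these cells were counted as CthPN, the P7 share rose to 18.5% ± 1.67 of all cells, 33.1% ± 1.69 of the 3 projection classes and 57.3% ± 1.49 of the deep-layer classes (SD over 4 libraries). P7 minus P1 then turned to 2.55 points of the 3 projection classes (adjusted p = 0.171) and was -1.65 points of all cells (adjusted p = 0.321; exact permutation tests, n = 4). Of the deep-layer classes it kept its direction at -15.0 points (p = 0.0286, the smallest possible, adjusted p = 0.129, exact permutation test, n = 4). P21 minus P7 turned on all 3 denominators, to -1.88 points of all cells, -4.08 of the 3 projection classes and -3.82 of the deep-layer classes (adjusted p = 0.321, 0.171 and 0.171, exact permutation tests, n = 4). The calls for P7 thus depended on whether cluster 9 was counted as corticothalamic, and the values used here do not give the identity of that cluster.

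The mouse CthPN cells lay in 6 clusters, and their clusters linked neighboring ages. At P1 there were 800 cells in cluster 10 and 169 in cluster 18. At P7 cluster 18 held 176 cells and cluster 20 held the remaining 128. At P21 cluster 20 held 127 cells, beside 900 in cluster 7, 224 in cluster 21 and 184 in cluster 22. Cluster 18 was therefore shared by P1 and P7, and cluster 20 by P7 and P21, in near equal numbers from each age. None held named cells of both P1 and P21. Only 5 unnamed cells fell into these 6 clusters, 1 in cluster 7, 2 in cluster 10 and 2 in cluster 18.

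All 304 CthPN cells of P7 thus lay in a cluster that also held CthPN cells of another age. At P1 this was true of 169 cells (17.4%) and at P21 of 127 cells (8.85%). These counts cover named cells only. The 834 unnamed cells of cluster 9, all of P7, shared no cluster with another age. With them counted as CthPN, the P7 part would be smaller. The 9 other pyramidal clusters of mouse, which held 10616 callosal, layer IV and subcerebral cells or unnamed cells beside them, were each named at 1 age. In them 9 cells came from another age, all in 1 callosal cluster of P1. Among the 10 clusters of interneurons and glia, 4 were named at 2 ages. Clusters named at 2 ages were therefore not particular to CthPN among all cells. No test was made of these counts, because the clusters were drawn from the same cells. The authors also removed small age parts of clusters before naming, so sharing by few cells cannot be read from the names.

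**Figure D3:**
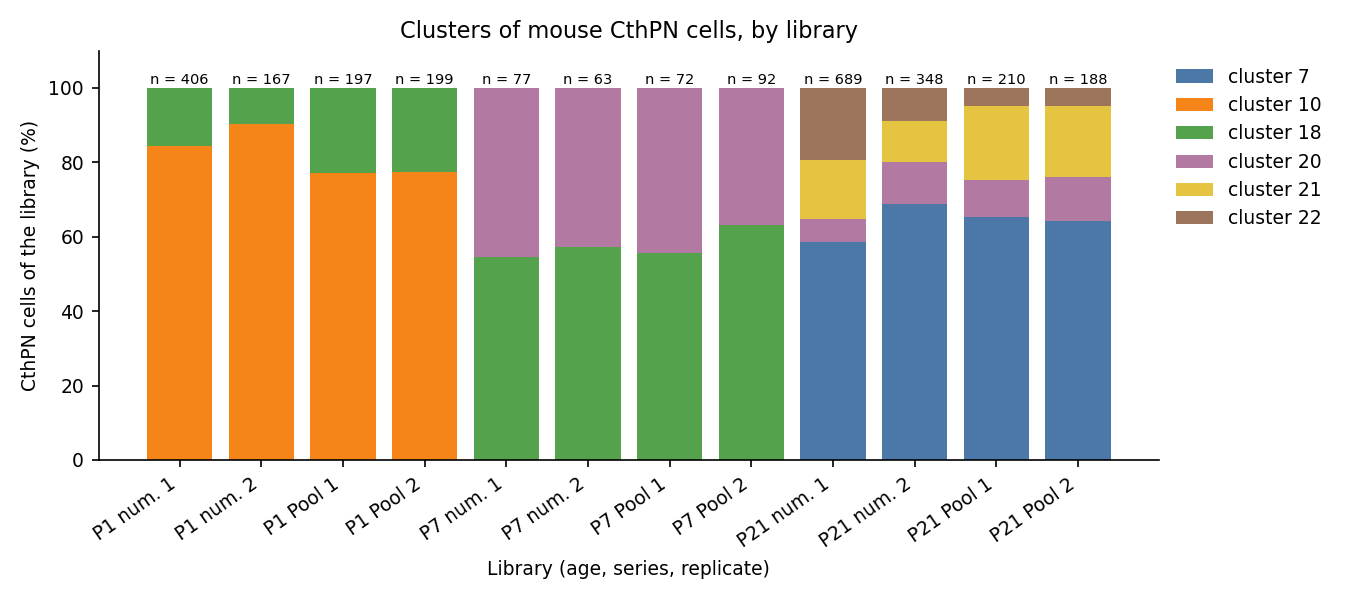
Share of the CthPN cells of each mouse library (y axis, percent) that lay in each of the 6 clusters (colors), with the number of CthPN cells above each bar and libraries ordered by age (x axis). Cluster 18 appears at P1 and P7 and cluster 20 at P7 and P21, and cluster 22 is widest in the first numbered P21 library at 19.4%.

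The makeup by cluster was even between the P7 libraries and uneven between those of P1 and P21. At P7 cluster 18 took 54.5%, 57.1%, 55.6% and 63.0% of the CthPN cells of the 4 libraries (mean 57.6% ± 3.80, SD). At P1 cluster 18 took 15.5% (95% Wilson interval 12.3 to 19.4) and 9.58% (5.98 to 15.0) in the numbered libraries. It took 22.8% (17.5 to 29.2) and 22.6% (17.4 to 28.9) in the Pool libraries. Both Pool libraries thus lay above both numbered libraries, which are the libraries with few peaks per read. Whether that property moved cells between clusters 10 and 18 was not tested.

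At P21 cluster 7 was the main cluster in every library, with 58.5% to 68.7% of CthPN cells. Cluster 20 took 6.39% to 11.7% and cluster 21 took 10.9% to 20.0%. Cluster 22 came mostly from 1 library: 134 of its 184 cells (72.8%) were from the first numbered P21 library. There it made up 19.4% (95% Wilson interval 16.7 to 22.6) of CthPN cells, against 8.91% (6.35 to 12.4) in the second numbered library, 4.76% (2.61 to 8.54) in the first Pool library and 4.79% (2.54 to 8.85) in the second. The first numbered P21 library was also the largest of the mouse libraries, with 3407 cells.

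Clusters of the same age differed in depth. At P1 the median was 3732.5 reads in cluster 10 and 4843 in cluster 18, and cluster 18 had the higher median in 4 of 4 libraries. At P7 it was 5453.5 in cluster 18 and 3495 in cluster 20, again with cluster 18 higher in 4 of 4 libraries. At P21 clusters 21 and 22 had medians of 6330 and 5850 reads, against 3559 in cluster 7 and 3885 in cluster 20. In each of the 4 P21 libraries both clusters 21 and 22 lay above cluster 7. These are descriptions, since the clusters were formed from the same reads. The clusters of P7 and P21 were alike in peaks for a given number of reads, with medians of 543 to 555 peaks per 1000 reads.

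The median CthPN cell had 5170.5 and 6955 reads in the numbered P1 libraries and 2256 and 1949 in the Pool P1 libraries. At P7 the medians were 4650 and 4813 in numbered and 3475 and 5644.5 in Pool libraries. At P21 they were 4317 and 4096.5 in numbered and 3853.5 and 3943 in Pool libraries. P1 thus covered the whole range of the other ages, and its series did not overlap, whereas P21 libraries lay close together. The means were 4083 ± 2403 reads in P1, 4646 ± 894 in P7 and 4053 ± 203 in P21 libraries (SD over 4 libraries). None of the 3 differences passed (adjusted p = 0.804, 0.331 and 1, exact permutation tests, n = 4). Without both numbered P1 libraries, P7 lay 2543 and P21 1950 reads above P1 (adjusted p = 0.150 each, exact permutation tests, n = 4 against 2 libraries).

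The floor that the authors set on peaks acted on the numbered P1 libraries in another way than on the rest. In the second numbered P1 library the lowest read count of a CthPN cell was 2350 and the lowest peak count 300. In the first they were 1036 and 301. In the other mouse libraries the lowest read count lay between 1003 and 1497, and the lowest peak count between 493 and 815. Of CthPN cells, 94.3% and 100% had at least 2000 reads in the numbered P1 libraries, against 56.3% and 47.2% in the Pool P1 libraries. With a minimum of 2000 reads for every cell, each of the 7 differences in share that passed kept its direction and its call.

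Peaks were also compared in cells with 2000 to 4000 reads, a window that narrows depth without making it equal. The median CthPN cell there had 524 and 391.5 peaks in the numbered P1 libraries. It had 1500 and 1553 in the Pool P1 libraries. P7 libraries had 1591 to 1863 peaks and P21 libraries 1545 to 1660. P7 lay 757.5 peaks above P1, and P21 626.75 above P1 (adjusted p = 0.0857 and 0.103, exact permutation tests, n = 4). Without the numbered P1 libraries the differences were 223 and 92.4 peaks (adjusted p = 0.150 and 0.225, exact permutation tests, n = 4 against 2 libraries). The gap to P1 was thus mostly that of the 2 libraries with few peaks per read. P21 minus P7 was -131 peaks (adjusted p = 0.171, exact permutation test, n = 4).

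Set beside the other pyramidal cells of the same library, named CthPN cells were relatively deepest at P7. The ratio of the CthPN median to the median of all other pyramidal cells averaged 1.09 ± 0.0956 in P1, 1.32 ± 0.148 in P7 and 0.965 ± 0.0470 in P21 libraries (SD over 4 libraries). By library it was 1.06, 1.08, 1.22 and 0.995 at P1. It was 1.26, 1.26, 1.23 and 1.54 at P7, above every library of P1 and P21. At P21 it was 1.02, 0.981, 0.938 and 0.918. P7 differed from P1 by 0.23 and P21 from P7 by -0.36, each at p = 0.0286, the smallest possible, but at adjusted p = 0.0857 over 9 tests of reads and peaks (exact permutation tests, n = 4), so neither passed. With means over cells in place of medians, P7 minus P1 was 0.119 (p = 0.314, exact permutation test, n = 4). P21 minus P1 was -0.13 (adjusted p = 0.103, exact permutation test, n = 4). Cluster 9 of P7, left unnamed, entered neither side of the ratio, and the ratio was not recomputed with it counted as CthPN.

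By name, CthPN cells of P7 had a higher median than CPN, ScPN and layer IV cells in 4 of 4 libraries. At P21 they had a lower median than CPN and ScPN cells in 4 of 4 libraries and a higher one than layer IV cells in 4 of 4. At P1 they were above CPN in 3 of 4 and above ScPN in 2 of 4. These orders were not tested, because cells were named from clusters of the same data. At P7, the 834 cells of the unnamed cluster 9 had a lower median (2940.5 reads) than CthPN cells had in any P7 library.

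**Figure D4:**
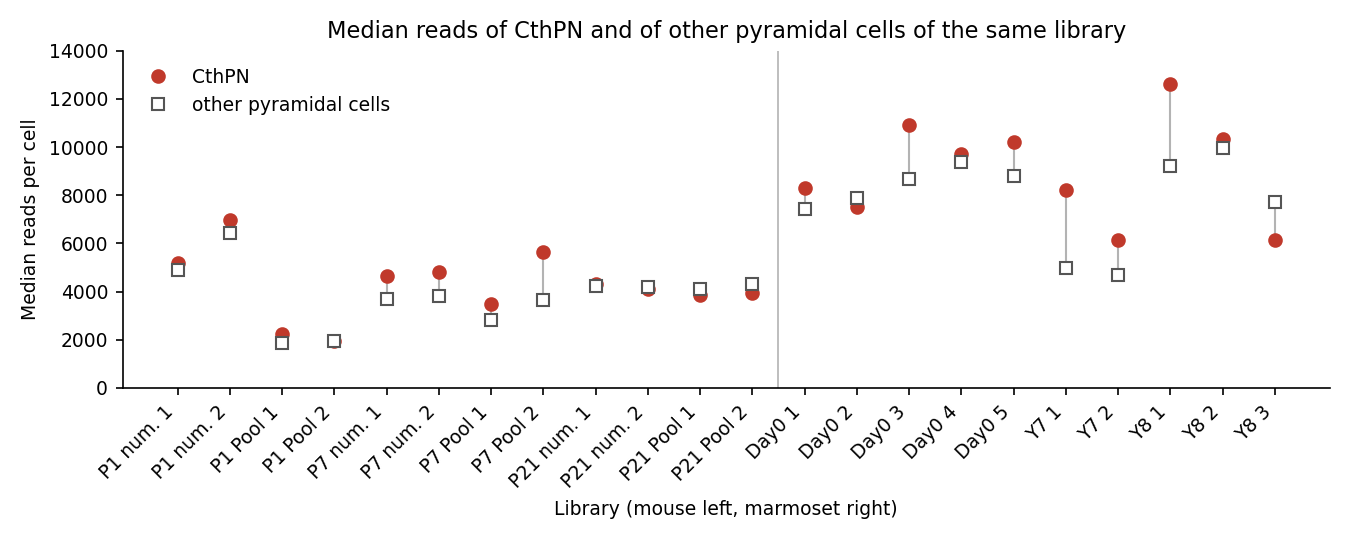
Median reads per cell (y axis) of CthPN cells (filled circles) and of the other pyramidal cells of the same library (open squares) for each mouse and marmoset library (x axis). In mouse the gap is widest at P7, where the ratio runs from 1.23 to 1.54, and in marmoset the 3 Y8 circles rest on 2, 7 and 2 cells.

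CthPN cells took a larger part of the reads of a library than of its cells in 12 of 12 mouse libraries. At P7 they carried 6.63% and 5.95% of the reads of the numbered P7 libraries and 5.14% and 9.92% of those of the Pool P7 libraries. At P1 they carried 18.5% to 27.1% of the reads of a library and at P21 15.3% to 22.5%. P7 libraries lay below both other ages on this scale, but a share of reads largely repeats the share of cells. Cluster 9 of P7 was not counted as CthPN here.

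In marmoset, CthPN cells were found mainly in the newborn. The 5 Day0 libraries held 92, 88, 126, 119 and 92 CthPN cells. The Y7 libraries held 84 and 30, and the Y8 libraries held 2, 7 and 2. Of the 125 adult cells, 84 (67.2%) came from the first Y7 library. Any value for Y8 CthPN cells rests on 11 cells, and whether Y7 and Y8 differed by animal or by tissue taken cannot be told from the labels.

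Of all cells of a library, CthPN made up 6.12% ± 0.730 in Day0 and 1.67% ± 2.19 in adult libraries (SD over 5 libraries). The lowest Day0 library had 5.43% (95% Wilson interval 4.43 to 6.64) and the highest adult library, the first of Y7, had 5.16% (4.19 to 6.35). The second Y7 library had 2.48% (1.74 to 3.52). The Y8 libraries had 0.127% (0.0349 to 0.463), 0.426% (0.207 to 0.877) and 0.137% (0.0375 to 0.497). Every adult library lay below every Day0 library, but the first Y7 library only just, within counting error. The difference was -4.45 percentage points (p = 0.00794, adjusted p = 0.0238 over 3 tests of shares, exact permutation test, n = 5). With Y7 libraries only it was -2.30 points (adjusted p = 0.0714, exact permutation test, n = 2 against 5), where 2 libraries against 5 cannot give a p under 0.0476. With agreeing libraries averaged it was -3.91 points (adjusted p = 0.0857, exact permutation test, n = 4), which ends the call.

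The adult libraries held few neurons, so the share of neurons is the closer measure of how CthPN stood among them. CthPN made up 8.54% ± 0.753 of neurons in Day0 and 9.52% ± 8.28 in adult libraries (SD over 5 libraries). Day0 libraries lay between 7.81% and 9.35%. Adult libraries ran from 1.92% (95% Wilson interval 0.529 to 6.74), 2 of 104 neurons, in the first Y8 library to 22.2% (18.3 to 26.7), 84 of 378 neurons, in the first Y7 library. The difference of 0.981 points did not pass the threshold (adjusted p = 0.857, exact permutation test, n = 5). Both Y7 libraries, at 22.2% and 11.5%, lay above all Day0 libraries, and 2 of 3 Y8 libraries lay below them. Without the first Y7 library the difference turned to -2.20 points, and with Y8 libraries only it was -3.91 points. No direction can be read from it.

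Callosal and subcerebral neurons were named in marmoset only at Day0, so the pyramidal share was taken over the 3 names used at both ages, CthPN, layer IV and generic excitatory neurons. CthPN made up 39.4% ± 6.13 of these in Day0 and 16.9% ± 11.8 in adult libraries (SD over 5 libraries), a difference of -22.5 points (p = 0.0159, adjusted p = 0.0238, exact permutation test, n = 5). The groups overlapped, since the first Y7 library, at 32.8%, lay above the second Day0 library, at 31.0%. At Day0 these 3 names leave out CPN and ScPN cells, but in adults they cover every named pyramidal cell. Day0 libraries held 92, 88, 126, 119 and 92 CthPN cells beside 485, 511, 645, 597 and 538 other pyramidal cells of any name. Adult libraries held 84, 30, 2, 7 and 2 beside 172, 106, 41, 30 and 32. The share of all pyramidal cells was not tested, and the difference among these 3 names cannot be read as a fall in it. With Y7 libraries only the difference was -12.0 points (adjusted p = 0.143, exact permutation test, n = 2 against 5), and with agreeing libraries averaged it was -20.5 points (adjusted p = 0.0857, exact permutation test, n = 4), so the call was lost in both. The other 2 names were split among Day0 libraries. Replicates 1 and 2 held 168 and 188 generic excitatory cells and 2 and 8 layer IV cells. Replicates 3 to 5 held 178, 147 and 113 layer IV cells, and 1 generic excitatory cell among them. The CthPN share of the 3 names followed the same grouping, at 35.1% and 31.0% in replicates 1 and 2 and 41.4%, 44.6% and 44.9% in replicates 3 to 5.

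**Figure D5:**
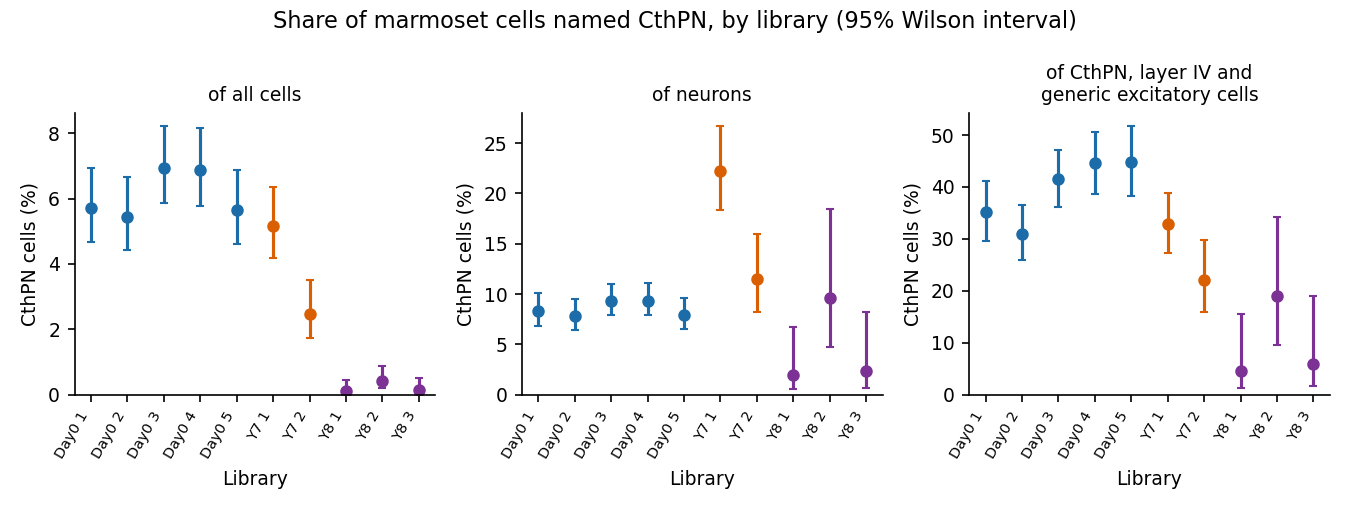
CthPN cells in percent (y axis) of all cells, of neurons, and of CthPN, layer IV and generic excitatory cells in each marmoset library (x axis), with 95% Wilson intervals. Adult libraries lie below Day0 in the first panel, and in the second the Y7 libraries, at 22.2% and 11.5%, lie above Day0.

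Marmoset CthPN cells lay in 3 clusters, each of 1 age. At Day0 cluster 20 held 346 cells and cluster 23 held 171, and in adults cluster 26 held all 125. No marmoset CthPN cluster was shared by 2 ages, and neither was any of the 8 other pyramidal clusters. The authors had split clusters by age and removed parts with few cells, so a small shared part would not appear here. Cluster numbers were given separately in each species, so cluster 20 of marmoset is not cluster 20 of mouse. At Day0 both clusters were present in every library. Cluster 20 took 61.3% to 76.1% of CthPN cells (mean 66.9% ± 6.38, SD, n = 5 libraries). The median cell had 9761 reads in cluster 20 and 8783 in cluster 23, but the order of the clusters was not the same in every library, at 7526.5 against 7944 in replicate 2 and 10453 against 11150 in replicate 3.

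The median CthPN cell of the Day0 libraries had 8292.5, 7526.5, 10906, 9717 and 10210.5 reads. It had 8236 and 6123.5 reads in the Y7 libraries and 12619, 10334 and 6155 in the Y8 libraries. The adult values covered the range of the newborn ones. The means were 9331 ± 1391 and 8694 ± 2800 reads (SD over 5 libraries), and the difference of -637 did not pass the threshold (adjusted p = 0.698, exact permutation test, n = 5). Adult CthPN cells stood well above their libraries as a whole, whose median cell had 3274 and 3338 reads in Y7 and 2557.5 to 2618 in Y8, with 6092 to 7145.5 at Day0. This was not particular to CthPN. The other pyramidal cells had medians of 4977 and 4706 reads in Y7 and 7704.5 to 9946 in Y8. The Y8 medians of CthPN rest on 2, 7 and 2 cells.

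Relative to other pyramidal cells of the same library, the CthPN median was 1.11 ± 0.116 times as high at Day0 and 1.23 ± 0.327 times as high in adults (SD over 5 libraries). It was 1.65 and 1.30 in the Y7 libraries, both above the highest Day0 library at 1.26. The Y8 libraries ranged from 0.799 to 1.37. The difference of 0.13 did not pass the threshold (adjusted p = 0.667, exact permutation test, n = 5). Its value ran from 0.0215 without the first Y7 library to 0.235 without Y8 replicate 3, and means over cells in place of medians gave 0.0282. In cells with 2000 to 4000 reads the median was 1639 ± 189 peaks at Day0 (SD, n = 5) and 1465 ± 102 in the 3 adult libraries that had such cells. Y8 replicates 1 and 3 had none, and replicate 2 had 1. The difference of -175 peaks did not pass the threshold (adjusted p = 0.667, exact permutation test, n = 3 against 5). Peaks per 1000 reads of CthPN cells went the other way, at 524 ± 17.1 in Day0 and 545 ± 13.2 in adult libraries (SD, n = 5). The window narrows depth without making it equal, so no direction at equal depth can be read from it.

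Side by side and without a test, since species and library chemistry went together, CthPN cells had 1949 to 6955 median reads per mouse library and 6123.5 to 12619 per marmoset library. Outside the numbered P1 libraries, peaks per 1000 reads were alike in level, at medians of 520 to 579 in mouse and 495 to 560 in marmoset. At the youngest age sampled, CthPN made up 20.2% ± 2.15 of mouse cells (n = 4) and 6.12% ± 0.730 of marmoset cells (n = 5). P1 mouse and Day0 marmoset cortex differ in maturity, in the cell types named and in how cells were collected. All named P7 mouse CthPN cells and no marmoset CthPN cell lay in a cluster shared by 2 ages. However, the mouse ages lie days or weeks apart and the marmoset ages years apart. Cluster 9 of P7 mouse, left unnamed, was not shared. Removal of small age parts of clusters by the authors also limits what sharing could be seen.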

How the data were processed

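Mouse cells were indexed on plates and marmoset cells, sorted as live, in droplets. The authors aligned reads with Bowtie2 (mm10 for mouse, calJac3 for marmoset), removed duplicates, sampled libraries to a similar depth per cell and called peaks with MACS2. They kept cells within limits on reads and peaks and clustered them. Clusters with cells of several ages were split by age, and those with few cells were removed. The clusters were then named from marker genes. Nothing used here states how doublets were treated. The deposited values are counts per cell, the reads and the peaks with a read, without normalization. CthPN cells were counted per library. Medians and shares, 1 value per library, were compared by exact two-sided permutation tests of the difference in means (Python 3.11.15, scipy), adjusted within species over shares and over reads and peaks. An adjusted p under 0.05 passed. The test was checked on simulated data. No gene was named as a result, and every cluster with a CthPN cell is named. Members, lists and tests were chosen with earlier results of these data known. Libraries of 1 age were compared over clusters by a chi-square test: 4 of 18 mouse and 3 of 20 marmoset pairs agreed within sampling noise. No barcode shared by a pair had the same values in both. The agreeing mouse pairs shared no barcode, so this check could not tell whether they were separate replicates. All libraries were kept apart. Averaging those that agreed was an alternative, as were means over cells, other depth limits, single series and single libraries left out.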

Additional observations from a re-analysis of the deposited data

Results flagged for a closer look

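Among the groups of libraries examined for 1 value far from the others, 1 value was flagged. In the second Pool P7 library, the ratio of the median reads of CthPN cells to those of other pyramidal cells was 1.54, against 1.26 in the next highest and 1.23 in the lowest of the 4 P7 libraries. It rests on 92 CthPN and 799 other pyramidal cells. Chance flags about 1 in 20 groups, and 34 groups were examined. Without this library, P7 minus P1 was 0.157 and P21 minus P7 was -0.282.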

How the results depend on the processing

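Values here are differences, later minus earlier age, in percentage points for shares, in reads, in peaks or in the ratio of median reads. No setting turned a share that passed, except counting cluster 9 as CthPN. In mouse, leaving out any 1 library and a minimum of 2000 reads or 600 peaks kept the 7 calls, and pooling cells, which has no test, kept their direction. The 7 calls were lost where few libraries were left. In the order P7 minus P1 and P21 minus P7 of the 3 projection classes, P7 minus P1, P21 minus P7 and P21 minus P1 of the deep-layer classes, then P7 minus P1 and P21 minus P7 of all cells, the values were -17.1, 19.4, -45.7, 27.5, -18.2, -13.6 and 14.0 in numbered libraries, -20.3, 15.0, -46.0, 26.5, -19.5, -16.7 and 9.29 in Pool libraries, and -18.7, 17.9, -46.0, 27.5, -18.5, -15.1 and 12.3 with agreeing libraries averaged. With cluster 9 counted they were 2.55, -4.08, -15.0, -3.82, -18.9, -1.65 and -1.88. The P21 minus P1 value of the deep-layer classes is not touched by cluster 9, and its call was lost through the adjustment alone (adjusted p = 0.129, exact permutation test, n = 4). Without both numbered P1 libraries, a setting chosen after seeing the data, the 4 against P1 were -20.4 (3 projection classes), -45.5 and -18.5 (deep-layer classes) and -16.9 (all cells).

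With the replicate number within a series as a block, the mouse values stayed at -18.7, 17.2, -45.8, 27.0, -18.9, -15.2 and 11.6, but no p under 0.125 was possible (exact permutation test, n = 4). Over cell classes, the deviations of same-numbered libraries correlated above 0.1 in 3 of 12 mouse pairs and 0 of 3 marmoset pairs (-0.780 to 0.485), so the numbers were not taken to pair libraries. In marmoset the block over Day0 and Y8 replicates 1 to 3 gave -5.80 of all cells, -26.0 of names used at both ages, -3.86 of neurons, 794 reads and -0.0408 in the ratio, with no p under 0.250 possible (exact permutation test, n = 3).

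Values that did not pass turned in direction as follows. P21 minus P1 was 2.27 of the 3 projection classes and 0.393 of all cells in numbered libraries. For mouse reads, P7 minus P1 was -1331 in numbered libraries and -209.5 with a minimum of 600 peaks, and ran from -148 to 1520 with 1 library left out. P21 minus P1 was 1796 reads in Pool libraries, 21.3 with agreeing libraries averaged and 1950 without both numbered P1 libraries, and ran from -741 to 927 with 1 library left out. At 3000 to 6000 reads, P21 minus P7 was 43.25 peaks and adult minus Day0 159 peaks. In marmoset, Y8 libraries alone gave -3.91 of neurons, 372 reads and -0.0365 in the ratio. With 1 library left out, the difference ran from -2.20 to 2.88 of neurons and from -1618 to 5.5 reads. The 2 marmoset calls were lost with agreeing libraries averaged (-3.91 of all cells, -20.5 of names used at both ages) and with Y7 alone (-2.30 and -12.0). The cause of these turns was not tested. The Y8 values are limited by the number of cells, since the Y8 libraries together hold 11 CthPN cells.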
